A study of Mus musculus with 204 samples.

Results

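The 38 genes described here encode proteins that load, dock, prime and fuse synaptic vesicles at nerve terminals: SNARE proteins and the factors that take SNARE complexes apart, calcium sensors, priming and docking factors, RAB3 GTPases and proteins of the vesicle itself. They were chosen by name, as known members of the release machinery. All 38 were found among the 49492 gene rows of the series. The series holds single-cell RNA sequencing of 204 cells picked by hand from VGLUT2-tdTomato mice (distal colon), in which a red fluorescent protein reports the vesicular glutamate transporter VGLUT2, encoded by Slc17a6. The muscle layers with the myenteric plexus, the nerve network that drives gut movement, were dissociated, kept in culture overnight and searched for red cells. The cells fill 3 plates with 66, 66 and 72 cells. No treatment, mouse strain, age, sex, animal or culture is given in the labels, so every cell shares 1 condition, a plate is 1 sample, and no test or p-value was computed. Whether the reporter marks present or past activity of Slc17a6 is not given in the sources used here.

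Release starts when VAMP2 on the vesicle pairs with SNAP25 and syntaxin 1 on the plasma membrane, and the resulting SNARE complex pulls the membranes together. RIM and MUNC13 proteins prime the vesicle, complexins hold the complex ready, and synaptotagmins bind calcium and set off fusion, after which NSF and its SNAP adaptors recycle the SNAREs. Enteric neurons release acetylcholine, nitric oxide (made on demand and not stored in vesicles), peptides and, in some cells, glutamate, and many of these proteins exist as paralogues whose use in enteric neurons is the subject of the values below.

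The promoters of 4 genes are shown first because results below turn on them: Syn1 is the leading synapsin of the neurons, and Syn2, Sv2c and Syt9 are paralogues called higher in neurons with Chat and no Nos1 than in neurons with Nos1 and no Chat. Each window runs from 250 bases before to 50 bases after a RefSeq transcription start on GRCm38.p6, is written 5′ to 3′ on the strand of the gene, and was taken from RefSeq. The windows are chrX:20920869-20921168 on the minus strand for Syn1, chr6:115134652-115134951 on the plus strand for Syn2, chr13:96132528-96132827 on the minus strand for Sv2c and chr7:107370540-107370839 on the plus strand for Syt9. A further Syn2 window, chr6:115238744-115239043 on the plus strand with a GC content of 51%, is not shown. Capitals mark, in Syn1, a match to RE1, the element bound by the neuronal repressor REST, and then a cyclic AMP response element.
Syn1: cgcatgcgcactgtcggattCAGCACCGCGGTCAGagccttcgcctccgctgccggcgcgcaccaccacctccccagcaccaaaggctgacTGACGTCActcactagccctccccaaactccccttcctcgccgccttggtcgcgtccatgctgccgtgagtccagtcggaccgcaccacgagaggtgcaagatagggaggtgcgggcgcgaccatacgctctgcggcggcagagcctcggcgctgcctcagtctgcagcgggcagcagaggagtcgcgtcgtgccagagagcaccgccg
Syn2: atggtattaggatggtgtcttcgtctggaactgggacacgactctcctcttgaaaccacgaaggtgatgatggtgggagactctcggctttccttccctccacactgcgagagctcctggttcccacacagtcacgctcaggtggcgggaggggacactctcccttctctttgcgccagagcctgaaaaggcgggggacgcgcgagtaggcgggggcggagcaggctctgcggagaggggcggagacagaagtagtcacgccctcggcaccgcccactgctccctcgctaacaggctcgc
Sv2c: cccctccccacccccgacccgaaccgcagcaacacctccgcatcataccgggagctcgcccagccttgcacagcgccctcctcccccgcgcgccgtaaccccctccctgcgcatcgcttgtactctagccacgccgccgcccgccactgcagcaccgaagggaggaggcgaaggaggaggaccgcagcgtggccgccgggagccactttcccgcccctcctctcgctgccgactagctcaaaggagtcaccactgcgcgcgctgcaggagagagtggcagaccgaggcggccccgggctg
Syt9: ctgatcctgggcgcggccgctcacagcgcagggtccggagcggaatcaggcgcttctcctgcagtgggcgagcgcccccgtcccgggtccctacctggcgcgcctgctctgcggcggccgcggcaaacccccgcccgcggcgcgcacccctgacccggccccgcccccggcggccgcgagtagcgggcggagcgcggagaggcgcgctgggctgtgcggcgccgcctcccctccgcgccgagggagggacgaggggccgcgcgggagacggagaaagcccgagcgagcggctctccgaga
RE1 was searched on both strands as CAGCACC, any 2 bases and GGACAG, with up to 2 mismatches in all, and the cyclic AMP element as TGACGTCA with none; the 2 motifs did not overlap. The tables held 36 windows for 27 of the 38 genes. RE1 matched in 3 of the 36 windows (8.33%), those of Syn1 with 1 mismatch and of Syt2 and Syt6 with 2 mismatches each, and in 632 of 32851 windows of all genes (1.92%). The cyclic AMP element matched in 1 of the 36 windows (2.78%), that of Syn1, and in 588 of 32851 windows of all genes (1.79%). GC content of the windows shown was 68.3% for Syn1, 62.3% for Syn2, 71.7% for Sv2c and 79.3% for Syt9. These matches describe letters in a window and not sites of binding.

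Depth ranged from 453052 to 14310732 reads per cell, with plate medians of 3445516, 4571442 and 4690978. Reads, not molecules, were counted, since the kit adds no molecular identifiers. Intervals below are taken over numbers of cells of all plates together. They cover the error of counting cells only, and not the spread between plates. The labels call every cell a neuron, but 49 of the 204 cells (12, 20 and 17 on the 3 plates) carried under 50% of 12 pan-neuronal genes (among them Elavl4, Uchl1, Tubb3 and Stmn2), none of which is among the 38. These are called other cells here, and the remaining 54, 46 and 55 cells of the plates are called neuronal cells. Shares of neuronal cells below are over these 3 plates together. Of the 49 other cells, 48 carried a marker list of another cell type, as did 32.9% of neuronal cells (20 of 54, 18 of 46 and 13 of 55). Of 49 other cells, 26 carried the smooth muscle list, and 22.6% of neuronal cells did; its 8 genes summed to 6.65 to 135044 counts per 1000000 reads of the cell (CPM) in other and 1.42 to 65325 CPM in neuronal cells, and none of its genes was at 0 in all cells of either class.

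A transcript was called detected at 10 CPM. Neuronal cells held a median of 27 of the 38 transcripts (range 4 to 34), and other cells a median of 5 (range 1 to 11). Both medians were the same after every cell was thinned to 450000 reads. The neuronal median was 28, 28 and 27 on the 3 plates, and that of other cells 5.5, 6 and 4. Summed over the 38 genes, RPKM (reads per kilobase of gene and 1000000 reads, a level per length) had a median of 2054 in neuronal cells (28.3 to 4747) and of 55.4 in other cells (9.76 to 205.7), so the ranges overlapped at the low end of the neurons. Over the neuronal cells the number of transcripts detected went with log2 reads at a Pearson correlation of 0.61 (Spearman 0.55), and of 0.64 with plate means removed; the cells share libraries and depth, and this is a description only.

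Of the 38 transcripts, 11 were detected in at least 90% of neuronal cells and 16 more in 50% to under 90%. A further 5 were detected in 20% to under 50%, and 6 in under 20% of neuronal cells, namely Unc13c, Rims1, Sv2b, Rab3b, Syt12 and Cadps2. In other cells 22 of the 38 were detected in under 10% of cells, and 7 in none of 49, which allows a share of up to 6.12%. Of the 27 transcripts found in at least 50% of neuronal cells, 14 (51.9%) were in under 10% of other cells, against 519 of 8176 (6.35%) among all genes found in at least 50% of neuronal cells. Rims1 was the only member of the 38 detected in a larger share of other than of neuronal cells.

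**Figure D1:**
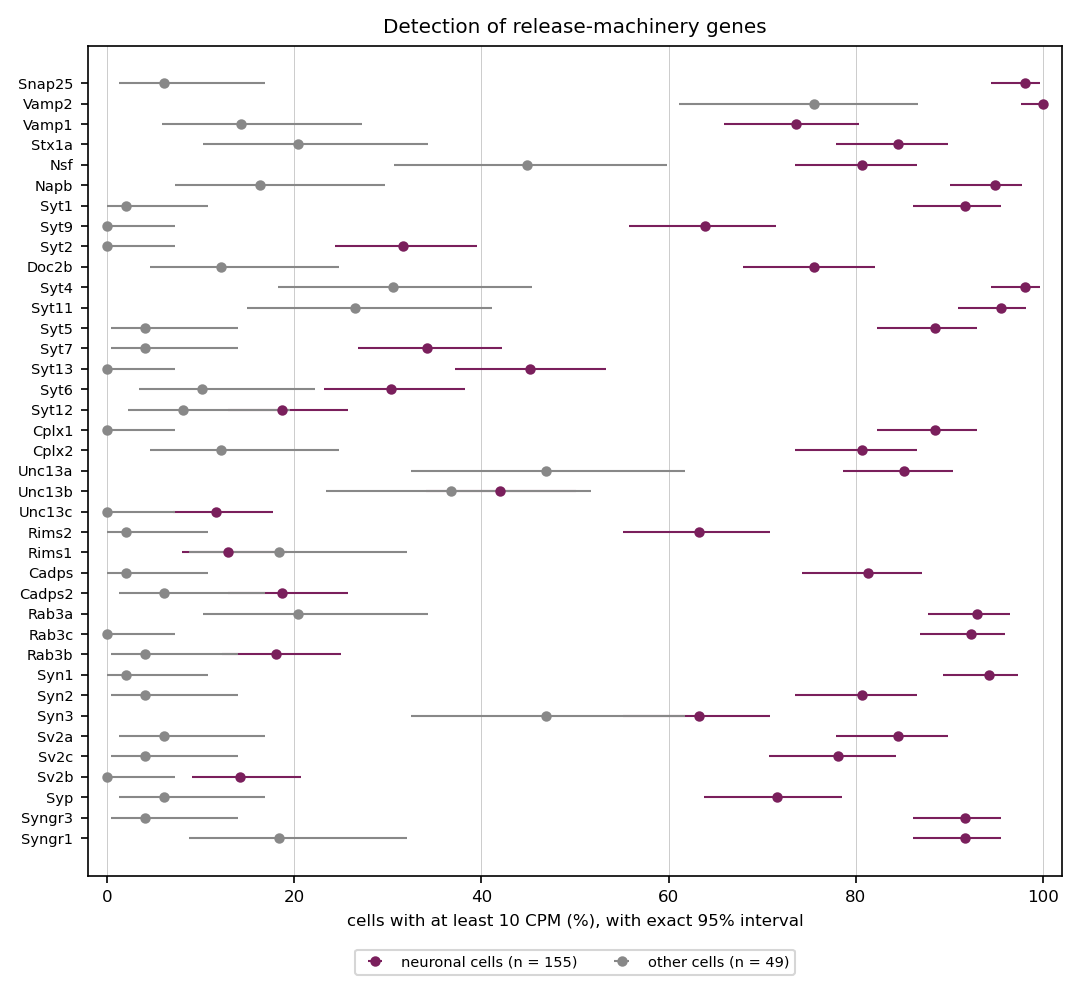
Share of neuronal and other cells (n in the legend), in percent, in which each of the 38 transcripts reached 10 CPM, with exact 95% intervals as bars. Vamp2 was detected in 100% of neuronal and 75.5% of other cells, while 7 transcripts were in no other cell.

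Transcripts of the neuronal SNAREs were found in most or all neuronal cells. Vamp2, the main vesicle SNARE, was detected in all neuronal cells (54 of 54, 46 of 46 and 55 of 55), at 4.68 to 896 RPKM with a median of 233 RPKM. Snap25, the plasma membrane SNARE that pairs with syntaxin 1, was detected in 98.1% of neuronal cells (54 of 54, 44 of 46 and 54 of 55, exact interval 94.4% to 99.6%), at 0.26 to 661 RPKM with a median of 145.6 RPKM. Stx1a, the syntaxin of the complex, was detected in 84.5% of neuronal cells with a median of 34.8 RPKM. All 3 spread widely between cells. The lowest cells of Snap25 and Stx1a reached down to or near 0, while the lowest cell of Vamp2 was at 4.68 RPKM. Vamp1, the paralogue known from motor and sensory terminals, was detected in 73.5% of neuronal cells, at a median of 3.80 RPKM. Among the genes that recycle SNAREs, Napb, the neuronal SNAP adaptor of NSF, was detected in 94.8% of neuronal cells (median 36.0 RPKM). Nsf, the ATPase itself, was detected in 80.6% of neuronal cells (median 7.59 RPKM). NSF serves membrane traffic in every cell type, and Nsf was detected in 22 of 49 other cells (44.9%), where Napb was detected in 8.

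Proteins of the vesicle membrane gave some of the highest levels. Syngr3, a synaptogyrin, was detected in 91.6% of neuronal cells with a median of 245 RPKM and a highest cell at 764 RPKM, and Syngr1 was detected in 91.6% too, with a median of 53.2 RPKM. Syp, encoding synaptophysin, the usual marker of synaptic vesicles, was detected in 71.6% of neuronal cells (interval 63.8% to 78.6%), from 0 to 394 RPKM with a median of 31.2 RPKM. Syp was the least often detected of these 3, although its mean of 56.0 RPKM was near the 54.9 RPKM of Syngr1. Sv2a, the SV2 form that binds levetiracetam, was detected in 84.5% of neuronal cells, Sv2c in 78.1% of neuronal cells and Sv2b in 14.2% of neuronal cells. Sv2b was found in 2 of 54, 11 of 46 and 9 of 55 neuronal cells of plates 1 to 3. Synapsins coat vesicles and tether them to actin. Syn1 was detected in 94.2% of neuronal cells with a median of 81.9 RPKM, Syn2 in 80.6% with 12.1 RPKM and Syn3 in 63.2% with 1.79 RPKM.

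Of the calcium sensors for fast fusion, Syt1 was detected in 91.6% of neuronal cells, from 0 to 151.8 RPKM with a median of 30.6 RPKM. Syt9 was detected in 63.9% with a median of 5.52 RPKM, and Syt2, the sensor of many fast motor terminals, in 31.6%. Doc2b, a high-affinity sensor linked to spontaneous release, was detected in 75.5% with a median of 17.2 RPKM. By transmitter class, Syt1 was detected in 55 of 56 neurons with Chat and no Nos1, in 50 of 50 with both and in 26 of 30 with Nos1 and no Chat. Syt4, which does not act as a calcium trigger and sits on dense core vesicles and in the Golgi, had the highest mean of the 38 genes. Syt4 reached 10 CPM in 54 of 54, 45 of 46 and 53 of 55 neuronal cells, from 1.84 to 1391 RPKM with a median of 215 RPKM. Its relative Syt11 was detected in 95.5% of neuronal cells with a median of 63.1 RPKM. Syt5 was detected in 88.4% with a median of 115.8 RPKM. Syt13, which binds no calcium, was detected in 45.2%, from 0 to 122.9 RPKM with a median of 0.88 RPKM, so the median cell was close to 0. Syt7, a slow high-affinity sensor of asynchronous release, was detected in 34.2%, Syt6 in 30.3% and Syt12 in 18.7%.

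Complexins clamp the SNARE complex before calcium enters. Cplx1 was detected in 88.4% of neuronal cells with a median of 66.0 RPKM and in 0 of 49 other cells, and Cplx2 in 80.6% with a median of 12.8 RPKM and in 6 of 49. Among priming genes, Unc13a was detected in 85.2% of neuronal cells, Unc13b in 41.9% and Unc13c in 11.6%. All 3 MUNC13 genes were low per length, with mean levels of 4.69, 0.70 and 0.53 RPKM. Rims2, a RIM scaffold that ties vesicles to calcium channels, was detected in 63.2%, and Rims1, which leads in much of the brain, in 12.9%. Cadps, encoding the dense core vesicle priming factor CAPS1, was detected in 81.3%, and Cadps2 in 18.7%. RAB3 proteins dock vesicles through RIM. Rab3a was detected in 92.9% of neuronal cells with a median of 85.5 RPKM, Rab3c in 92.3% with 24.4 RPKM, and Rab3b in 18.1%. Rab3c was detected in 0 of 49 other cells and Rab3a in 10.

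Ordered by mean level over the neuronal cells, 6 genes exceeded 100 RPKM: Syt4 at 308 RPKM, Syngr3 at 246, Vamp2 at 235, Snap25 at 162, Syt5 at 120.6 and Rab3a at 111.6. The means of the 3 plates for Syt4 were 325, 333 and 270 RPKM, for Syngr3 259, 223 and 251 RPKM, and for Vamp2 262, 224 and 216 RPKM. Plate means of Syngr3 and Vamp2 overlapped, as did those of Syt5 (147.5, 90.2 and 119.6 RPKM) and Rab3a (118.9, 109.8 and 106.1 RPKM), so the order of these neighbours is not fixed by the data. Syn1 and Cplx1 followed at 88.3 and 83.4 RPKM with overlapping plate means. At the low end, 11 genes had a mean under 5 RPKM, the lowest being Unc13c, Rims1, Unc13b and Cadps2. For 9 of the 38 the highest plate mean was over 2 times the lowest. Among these, Sv2c had means of 26.4, 10.1 and 15.4 RPKM on plates 1 to 3, Syt9 14.3, 8.50 and 6.72 RPKM, and Syn3 1.72, 5.27 and 7.94 RPKM. The plates also differed in their neurons: those with Nos1 and no Chat numbered 3, 14 and 13 on plates 1 to 3.

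**Figure D2:**
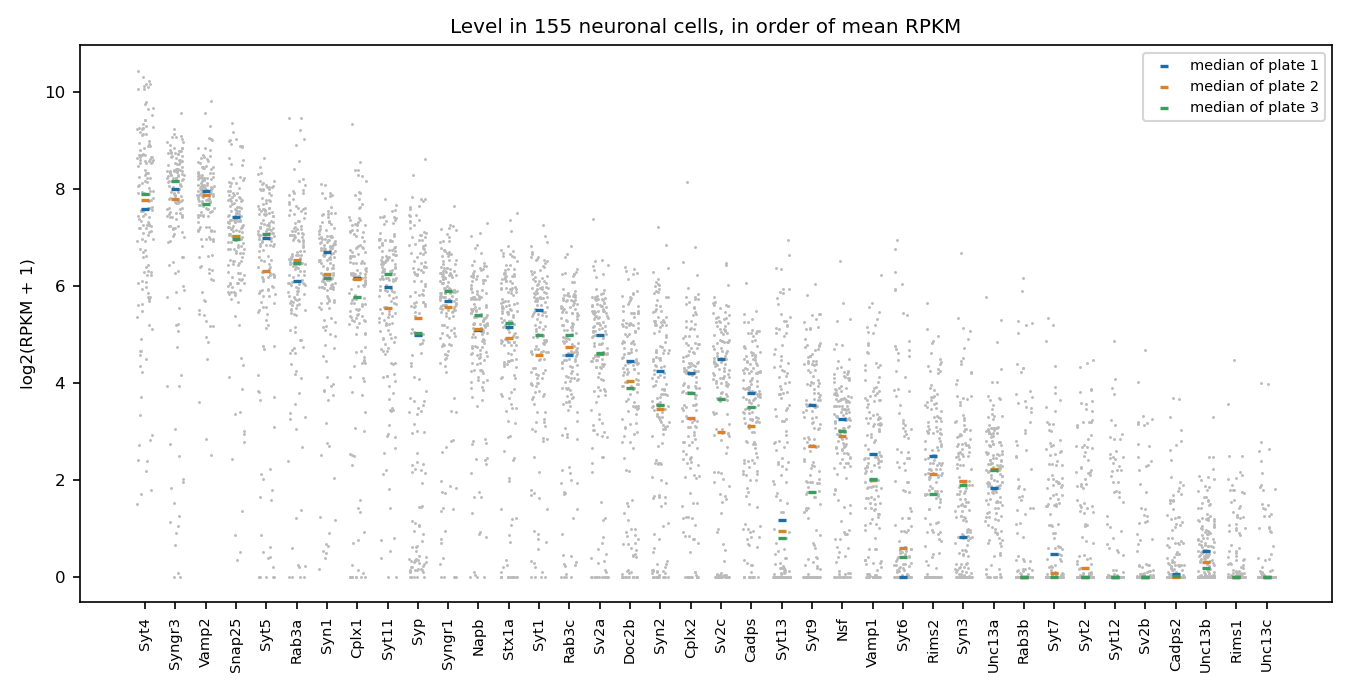
Level of each of the 38 transcripts in each neuronal cell (grey points), as log2(RPKM + 1), in order of mean RPKM, with the median of each plate as a coloured bar. Syt4 has the highest mean, 308 RPKM, and Unc13c the lowest, 0.53 RPKM, and Syp shows cells near 0 beside high cells.

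Paralogue use was dominated by 1 gene in most families. The share of a paralogue is its mean RPKM over that of the family, in the neuronal cells. Vamp2 made up 96.9% of the VAMP1 and VAMP2 total and was the higher of the pair in every neuronal cell (54, 46 and 55 cells). Cadps made up 94.5% of the CAPS total, Rims2 90.1% of the RIM total, Cplx1 81.8% of the complexins, Syngr3 81.7% of the synaptogyrins and Unc13a 79.2% of the MUNC13 total. Syn1 made up 78% of the synapsins (81.3%, 76% and 75.5% on the plates) and led in 88.2% of the neuronal cells with any synapsin detected. Syn2 and Syn3 took 17.6% and 4.40%. Rab3a made up 77.3% of the RAB3 total, Rab3c 20.4% and Rab3b 2.31%. Syt1 made up 76.1% of the fast synaptotagmins, Syt9 19.7% and Syt2 4.12%. The SV2 family was the least dominated by its leader: Sv2a made up 60.8% (54.9%, 70.3% and 61.7% on the plates) and Sv2c 37.3%, and Sv2a led in 68.8% and Sv2c in 30.6% of the cells with any. The leading paralogue was the same on all 3 plates in 12 of 12 families. Lengths matter here: per read and not per length (CPM), Sv2c led over Sv2a with 164.3 against 133.6 CPM, Rab3c led over Rab3a with 251 against 249 CPM, and 10 of 12 leaders were as above.

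**Figure D3:**
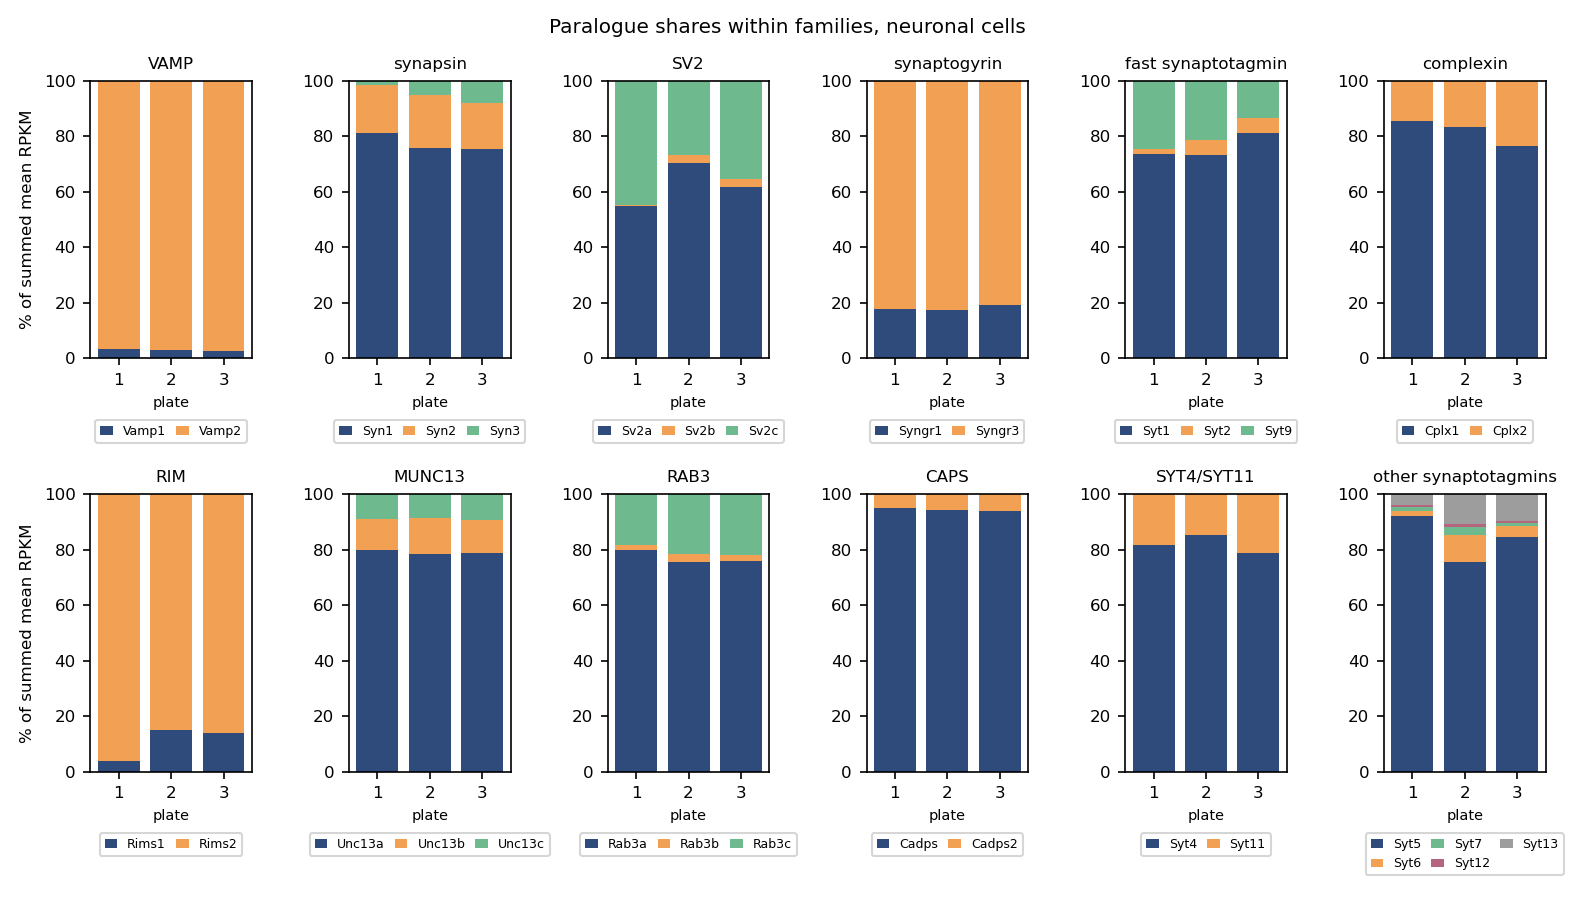
Share of each paralogue in the summed mean RPKM of its family, in percent, in the neuronal cells of plates 1, 2 and 3. Vamp2 and Cadps take nearly all of their families on every plate, while Sv2a and Sv2c divide theirs.

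In the RAB3, SV2, synapsin and fast synaptotagmin families most neuronal cells held several paralogues. Rab3a and Rab3c without Rab3b were detected together in 72.9% of neuronal cells. Sv2a and Sv2c without Sv2b were detected together in 63.2%. All 3 synapsins were detected in 47.7%, Syn1 and Syn2 alone in 30.3%, and Syn1 and Syn3 without Syn2 in 11.6%. Syt1 and Syt9 without Syt2 were detected in 39.4%, all 3 fast synaptotagmins in 21.9% and Syt1 alone in 21.3%. None of the 3 was detected in 8 cells. All of these counts use the threshold of 10 CPM. Reads counted for Syn3 cannot be told apart from those of Timp3, a gene that overlaps it, as described below.

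Neuronal cells were compared with other cells by the log2 ratio of mean CPM (1 CPM added) on each plate, and a gene was called higher or lower where the ratio reached 1 with the same sign on every plate, among genes with a mean of at least 5 CPM, which are called tested. Unc13c was under that mean. Of 37 members tested, 29 were higher in neuronal cells and 0 lower, where the background over 13300 genes was 16.7% higher and 5.53% lower. The median log2 ratio of the members was 4.75, 4.61 and 5.04 on plates 1 to 3, and that of all genes tested 0.24, 0.25 and 0.48. Scaling by size factors moved the all-gene medians to 0.85, 0.85 and 0.96, and the share of all calls that were higher from 75.1% to 89.4%. The part of the other cell types' transcripts in these ratios was not tested. In a mean over cells, fewer cells with a transcript and less of it per cell cannot be told apart. Snap25 ran from 1.78 to 4492 CPM (median 989) in neuronal cells and from 0 to 106 CPM (median 2.84) in other cells, with log2 ratios of 7.77, 8.03 and 6.46. The neuronal median lay above the highest other cell, and the ranges overlapped at the low end. Syt1 had log2 ratios of 7.77, 6.56 and 7.28, Rab3c of 7.34, 7.38 and 6.69, Syp of 7.24, 6.02 and 7.12, and Syn1 of 6.68, 7.13 and 7.04. Vamp2 was the called gene detected in the largest share of other cells. It ran from 17.8 to 3415 CPM (median 886) in neuronal cells and from 0 to 238 CPM (median 67.4) in other cells, with smaller log2 ratios of 3.30, 3.68 and 3.74.

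**Figure D4:**
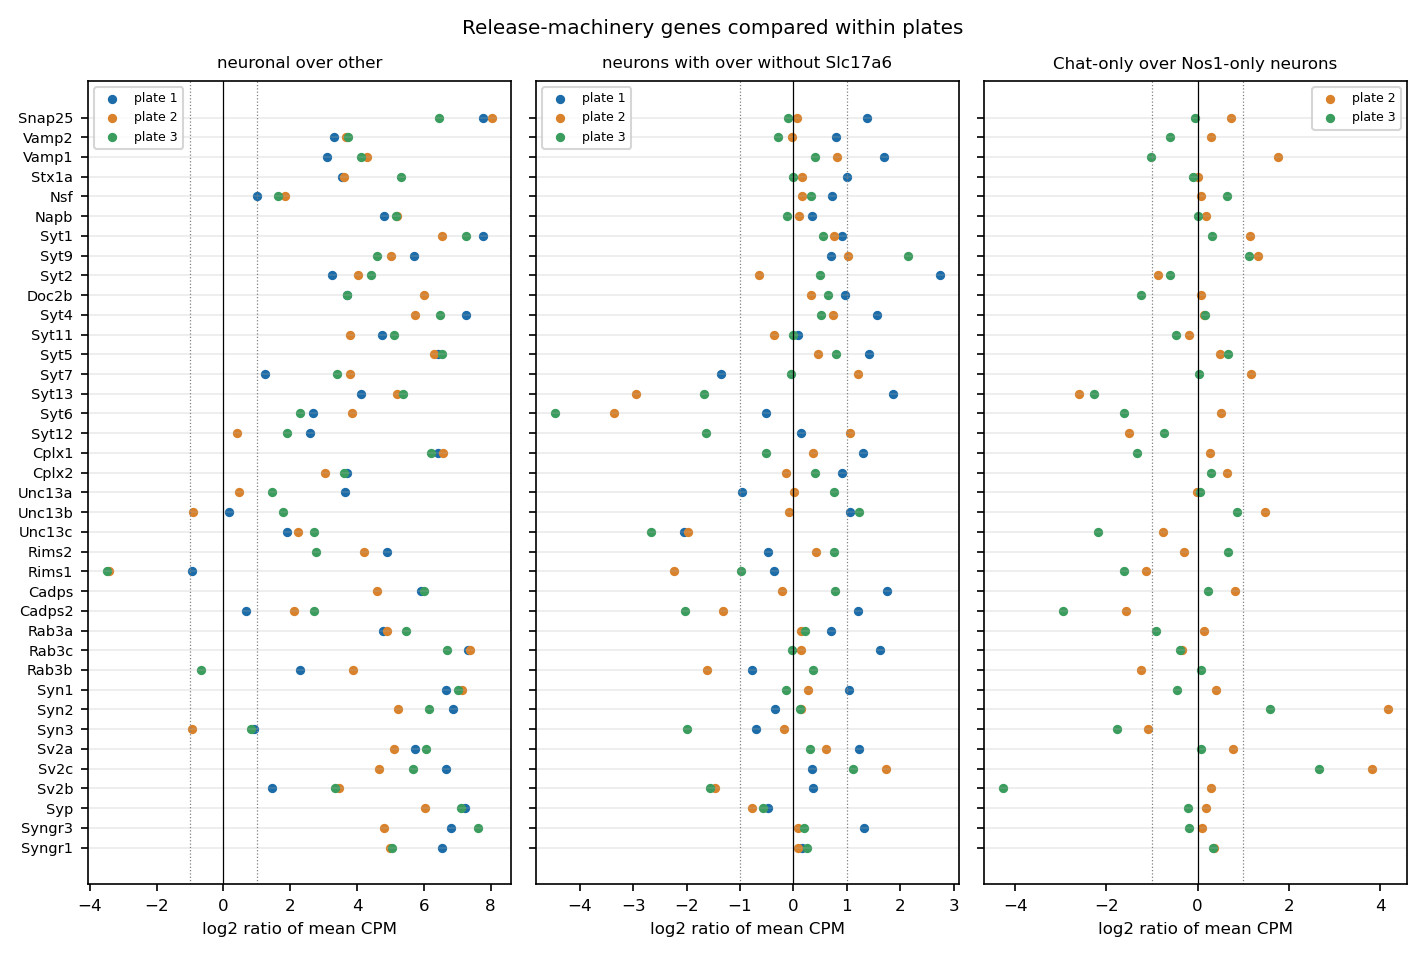
Log2 ratio of mean CPM (1 CPM added) of the 38 genes on each plate (points), for neuronal over other cells, neurons with over without Slc17a6 and Chat-only over Nos1-only neurons, with dotted lines at a log2 size of 1. Most members lie well above 0 in the first comparison, with Rims1 at -0.95, -3.44 and -3.48, and lie around 0 in the other two.

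Wells of a plate were amplified in 1 pool, and reads assigned to the wrong well would give neuronal transcripts in other cells. From genes with nearly all their reads in 1 cell, 56.7 (2 genes), 85.03 (11 genes) and 34.1 (1 gene) reads per 1000000 of the gene were found in each other well of plates 1 to 3. For Snap25 this predicts a median of 4.61 CPM in other cells, against 2.84 CPM observed. For Syt4 it predicts 6.45 CPM against 4.87 observed, and 2 of the 15 other cells with Syt4 exceeded 10 times their prediction. For Vamp2 it predicts 3.81 CPM against 67.4 observed, and 27 of 37 other cells with Vamp2 exceeded 10 times theirs. The medians of Snap25 and Syt4 in other cells were below this prediction, and that of Vamp2 was above it.

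Of the members tested, 8 were not called between neuronal and other cells: Nsf, Unc13a, Unc13b, Rims1, Syn3, Syt12, Rab3b and Cadps2. Nsf had log2 ratios of 0.99, 1.85 and 1.63, short of the size on plate 1 only. Unc13a had 3.64, 0.45 and 1.46 and was detected in 23 of 49 other cells (46.9%). Its exons share 495 bases with those of Colgalt1 on the opposite strand, and Unc13a and Colgalt1 went together across the 49 other cells (Pearson 0.54 and Spearman 0.58 on log2(CPM + 1)). In neuronal cells the values were 0.39 and 0.17. Syn3 had 0.91, -0.95 and 0.82 and was detected in 23 of 49 other cells (46.9%). It shares 1733 exon bases with Timp3, a protease inhibitor gene nested in Syn3 on the opposite strand, and the pair had a Pearson correlation of 0.69 (Spearman 0.70) in other and 0.57 (Spearman 0.54) in neuronal cells. The strand setting of the counts is not given in the sources used here, so reads of Syn3 and Timp3, and of Unc13a and Colgalt1, cannot be told apart. In all, 13 of the 38 genes share exon bases with a gene on the opposite strand, the next longest shares being 950 bases for Syt12 and 875 for Syp.

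Rims1 had log2 ratios of -0.95, -3.44 and -3.48, which did not meet the rule for a lower call on plate 1. Without the highest cell of each class the values were 1.19, -2.42 and -3.22, so the sign on plate 1 rests on the highest cells. It was called lower under 5 alternatives, beside 5.35% to 8.39% of all genes. These were neuronal status at 75% of the pan-neuronal list, neurons with no list of another cell type, and leaving out plate 1. The others were centring on the median of all genes and leaving out neurons with neither Chat nor Nos1. Only plate 1 fell short of the size, so the call without plate 1 follows from the rule. Centring moved plate 1 by its all-gene median of 0.24. It was not called, among others, with differences of mean log2(CPM + 1) (0.09 on plate 1), size factors, 10 CPM added or no filter. It encodes a RIM scaffold of the active zone and lies on chr1:22286251-22805994 on the minus strand (mm10). It was detected in 9 of 49 other cells (18.4%, interval 8.76% to 32.0%), at 21.6 to 926 CPM with a median of 195 CPM, while the remaining other cells had at most 2.26 CPM. The cells fell into a group with Rims1 and a group nearly without it. All 9 carried both the smooth muscle and the fibroblast list, with 2748 to 18292 CPM of Acta2 and 251 to 34179 CPM of Tagln. Of the other cells that carried the smooth muscle list 9 of 26 had Rims1, 1, 4 and 4 of them on plates 1 to 3, and of those that did not, 0 of 23. Of neuronal cells, 8 of 35 with the smooth muscle list and 12 of 120 without it had Rims1, at up to 150 and 32.5 CPM. Each of the 9 values exceeded 10 times the prediction for reads from wrong wells, which rests on 2, 11 and 1 genes of plates 1 to 3. The same held for 23 of 23 other cells with Syn3 and 22 of 22 with Nsf, and for 2 of 15 with Syt4. The part of reads from wrong wells and of smooth muscle and fibroblast transcripts in the Rims1 values was not tested.

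Slc17a6, which the reporter stands for, reached 10 CPM in 89 neuronal cells (44, 20 and 25 on the plates), and 66 were without it (10, 26 and 30). Between these classes 0 of 36 members tested were higher and 0 lower, where 1.42% and 1.02% of 13077 genes were called; Rims1 and Unc13c were under the mean of 5 CPM. Without plate 1, 2 members were higher (Sv2c and Syt9, beside 2.92% of all genes) and 4 lower (Sv2b, Syt6, Syt13 and Cadps2, beside 2.60% of all genes). The median log2 ratio of the members was 0.85, 0.12 and 0.21, and that of all genes 0.12, 0.08 and 0.18. On plate 1 the 10 neurons without Slc17a6 stood apart: 7 of 10 carried a list of another cell type, against 13 of 44 with it, and their members summed to a median of 909 RPKM against 2296 RPKM. Their part in the plate 1 values was not tested. Vamp2 had log2 ratios of 0.79, -0.03 and -0.30, Snap25 of 1.38, 0.06 and -0.10, and Stx1a of 1.01, 0.15 and -0.01. The core SNAREs thus had ratios near 0 on plates 2 and 3. In this comparison 12 members had a positive and 3 a negative sign on every plate. The share of all genes with 1 sign on every plate was not computed, and the medians of all genes were above 0 too. These counts are therefore not read as a lean of the members. Syt1 had 0.90, 0.75 and 0.55 and Syt4 1.57, 0.74 and 0.51, both on the positive side. Syt9 had 0.71, 1.03 and 2.14 and was detected in 39 of 44 against 6 of 10, 16 of 20 against 12 of 26, and 19 of 25 against 7 of 30 neurons. Sv2c had 0.35, 1.73 and 1.12. Neither met the size on every plate. The transmitter classes differ here as well: Nos1 had log2 ratios of 2.30, -3.93 and -3.83 and Chat of 0.78, 1.15 and 0.39.

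The neurons with Chat, the acetylcholine-synthesizing enzyme gene, were therefore also compared by Slc17a6 on their own, on plate 2 (17 with, 10 without) and plate 3 (25 with, 9 without). Sv2b, Syt12, Rims1, Unc13c and Cadps2 were under the mean of 5 CPM. Of 33 members tested, 1 was lower, Syt6, and 0 were higher, with a background over 12848 genes of 1.53% lower and 2.83% higher. Syt6, a synaptotagmin known from the acrosome and of little described role at synapses, lies on chr3:103575231-103645569 on the plus strand (mm10). On plate 2 it ran from 0 to 62.4 CPM (median 1.19) with Slc17a6 and from 0 to 711 CPM (median 42.2) without. On plate 3 it ran from 0 to 6.18 CPM (median 0.54) and from 0 to 447 CPM (median 36.3). On plate 2 the highest cell with Slc17a6 lay above the median of those without it, and on plate 3 it lay below that median. Syt6 was detected in 4 of 17 against 7 of 10 cells on plate 2, and in 0 of 25 against 5 of 9 on plate 3. The mean CPM was 11.7 against 192.4 and 1.65 against 79.6, giving log2 ratios of -3.93 and -4.93, and -3.84 and -3.81 without the highest cell of each class. On plate 1, where only 4 Chat neurons lacked Slc17a6, the means were 14.9 with and 12.3 CPM without it, and Syt6 was detected in 9 of 41 and 2 of 4 cells. Syt6 shares 505 exon bases with the pseudogene Atg4a-ps on the opposite strand. In the same comparison Syt9 had log2 ratios of 0.70 and 1.92 and Syn2 of -0.83 and -0.86, neither called.

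Neurons fell into 56 with Chat and no Nos1 (called Chat-only, 23, 17 and 16 on the plates), 50 with both, 30 with Nos1, the neuronal nitric oxide synthase gene, and no Chat (called Nos1-only, 3, 14 and 13) and 19 with neither. The median number of members detected was 28, 28, 27.5 and 13 in these classes. The 19 cells with neither were shallow, with a median of 1456730 reads, and 15 of them carried a list of another cell type. Their median of members was 24.5, 12 and 12 on plates 1 to 3. With every cell thinned to 450000 reads it was again 13 over the plates, and 28 in each of the other classes. Chat-only and Nos1-only neurons were compared on plates 2 (17 and 14 cells) and 3 (16 and 13 cells). Of 37 members tested, 3 were higher in Chat-only neurons (Syn2, Sv2c and Syt9) and 3 lower (Syt13, Syn3 and Cadps2), where the background over 13199 genes was 5.28% higher and 2.72% lower; Rims1 was under the mean of 5 CPM. With plate 2 alone 7 were higher and 5 lower, beside 14.3% and 10% of all genes, and with plate 3 alone 3 were higher and 9 lower, beside 13.5% and 8.65%. A count of 3 of 37 in each direction is small, and the genes are described singly. The members' median log2 ratios were 0.19 and -0.11, and those of all genes 0.03 and 0.06. Depth medians on plate 2 were 4204531 reads in Chat-only and 5673803 in Nos1-only neurons, and on plate 3 4986781 and 6885200. Lists of another cell type were carried by 5 of 17 and 5 of 14 cells on plate 2, and by 3 of 16 and 1 of 13 on plate 3. Slc17a6 differed between these classes too, with means of 53.6 against 7.36 CPM on plate 2 and 49.9 against 0.08 CPM on plate 3. On plate 1 its mean was 97.2 CPM in Chat-only and 113.9 CPM in the 3 Nos1-only neurons. Nos1 itself had a mean of 38.9 CPM in the 3 Nos1-only neurons of plate 1, against 624 and 947 CPM in those of plates 2 and 3. The part of Slc17a6, of depth and of the lists of another cell type in the calls below was not tested.

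Sv2c, on chr13:95954594-96132577 on the minus strand (mm10), encodes the vesicle protein that botulinum toxin A binds. On plate 2 it ran from 9.04 to 382 CPM (a mean of 157.04 CPM) in Chat-only and from 0 to 86.1 CPM (a mean of 10.1 CPM and a median of 0.07) in Nos1-only neurons. On plate 3 it ran from 13.7 to 439 CPM (median 200) and from 0 to 261 CPM (median 0.25). Nearly all Chat-only cells were high, and most Nos1-only cells were near 0 while a few reached the Chat-only range. It reached 10 CPM in 16 of 17 and 16 of 16 Chat-only against 2 of 14 and 4 of 13 Nos1-only neurons, and the log2 ratios were 3.83 and 2.65. Of the neurons with both Chat and Nos1, 49 of 50 had Sv2c. Plate 1 did not show the contrast in its 3 Nos1-only neurons, whose mean of Nos1 was 38.9 CPM. In them Sv2c was detected in 3 of 3, with a mean of 213 CPM against 265 CPM in Chat-only neurons.

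Syn2, on chr6:115134902-115282006 on the plus strand (mm10), was called in the same direction. On plate 2 it ran from 28.1 to 1033 CPM (median 216) in Chat-only and from 0 to 74.5 CPM (median 1.22) in Nos1-only neurons. On plate 3 it ran from 5.05 to 489 CPM (median 128.3) and from 0 to 316 CPM (median 52.6), so the classes overlapped more than on plate 2. It reached 10 CPM in 17 of 17 and 15 of 16 Chat-only against 4 of 14 and 7 of 13 Nos1-only neurons, with log2 ratios of 4.17 and 1.58. On plate 1 its mean was 218 CPM in Chat-only and 161.4 CPM in the 3 Nos1-only neurons. Across the neuronal cells Syn2 and Sv2c had a Pearson correlation of 0.53 (Spearman 0.48) on log2(CPM + 1), as a description over cells that share plates and depth. Syt9, on chr7:107370728-107548656 on the plus strand (mm10), had means of 49.6 against 19.2 CPM and 17.7 against 7.51 CPM and log2 ratios of 1.33 and 1.14. It was detected in 12 of 17 and 7 of 16 Chat-only and in 7 of 14 and 3 of 13 Nos1-only neurons, so its classes overlapped widely. Plate 1 had the reverse order, 51.3 CPM in Chat-only and 90.7 CPM in the 3 Nos1-only neurons.

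Syt13, on chr2:92915098-92956058 on the plus strand (mm10), was lower in Chat-only neurons, with means of 19.8 against 124.4 CPM and 29.6 against 145.9 CPM and log2 ratios of -2.59 and -2.27. It was detected in 7 of 17 and 5 of 16 Chat-only and in 11 of 14 and 12 of 13 Nos1-only neurons, but in 0 of 3 Nos1-only neurons of plate 1, where 10 of 23 Chat-only neurons had it. Cadps2, the CAPS paralogue, was low in both classes, with means of 4.13 against 14.2 CPM and 2.43 against 25.4 CPM and log2 ratios of -1.57 and -2.94. It reached 10 CPM in 3 of 17 and 2 of 16 against 6 of 14 and 6 of 13 neurons. Syn3 had means of 48.4 against 104 CPM and 64.1 against 221 CPM and log2 ratios of -1.08 and -1.77. Timp3, whose exons overlap those of Syn3, had means of 25.3 against 190.7 CPM and 48.5 against 476 CPM in the same cells, and which of the overlapping genes the reads came from was not tested. Without the highest cell of each class, the log2 ratios were 4.76 and 3.62 for Sv2c, 4.47 and 2.00 for Syn2, 1.51 and 1.85 for Syt9, -2.75 and -2.39 for Syt13, -1.09 and -1.67 for Syn3 and -1.42 and -2.80 for Cadps2.

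**Figure D5:**
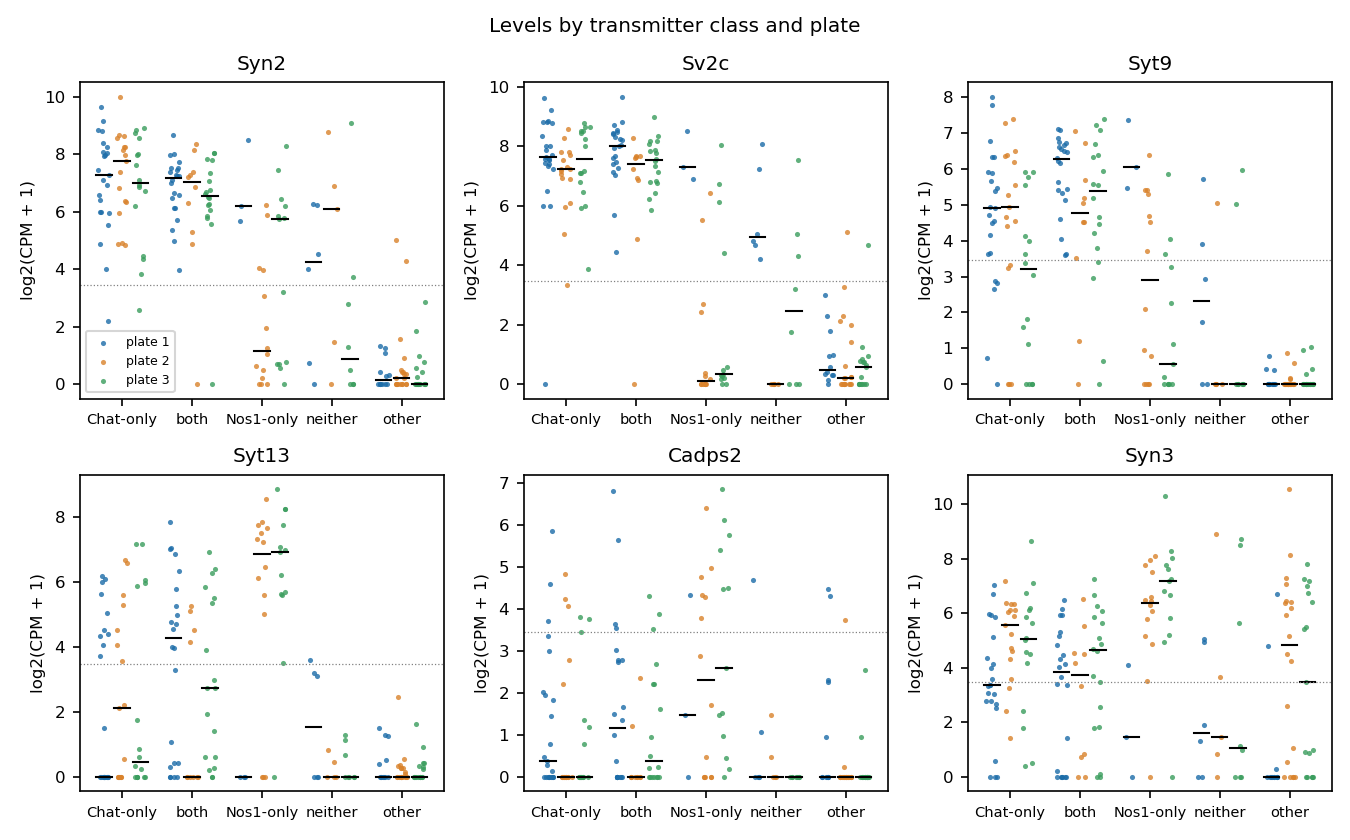
Level of the 6 members called between Chat-only and Nos1-only neurons in each cell (points), as log2(CPM + 1), by class and plate, with the median of each class and plate as a bar and a dotted line at 10 CPM. Sv2c is high in nearly all Chat-only cells and near 0 in most Nos1-only cells of plates 2 and 3, while the 3 Nos1-only cells of plate 1 all have it.

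Other genes of the machinery gave values near equality between these classes. Stx1a had log2 ratios of 0.00 and -0.11, Napb of 0.19 and 0.01, Syt4 of 0.14 and 0.16 and Syngr1 of 0.36 and 0.33. These are ratios of means over few cells and do not show that the levels were equal. Vamp2 had 0.29 and -0.60, Snap25 0.74 and -0.06 and Syn1 0.40 and -0.46, with a change of sign between the plates.

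Counts of SV2 and synapsin combinations by class followed the contrasts of Sv2c and Syn2, whose cells and values they share, so they are no separate evidence. Those of the fast synaptotagmins share cells and values with Syt9, which was called, and with Syt1 and Syt2, which were not. Sv2a and Sv2c without Sv2b were detected together in 48 of 56 Chat-only and in 3 of 30 Nos1-only neurons. Of the 30 Nos1-only neurons, 11 had Sv2a alone and 9 had Sv2a and Sv2b, so 20 carried Sv2a with no Sv2c. The share of Sv2c in the SV2 total was 32.2% and 42.0% in Chat-only neurons of plates 2 and 3 and 4.90% and 9.46% in Nos1-only neurons, while on plate 1 it was 47.8% and 45.5%. Syn1 and Syn3 without Syn2 were detected in 15 of 30 Nos1-only neurons and in 1 of 56 Chat-only neurons. Syt1 and Syt9 without Syt2 were detected in 31 of 56 Chat-only and in 1 of 30 Nos1-only neurons, and all 3 fast synaptotagmins in 6 of 56 and 10 of 30. Syt2 itself was found in 18 of 30 Nos1-only neurons and in 11 of 56 Chat-only neurons. It had log2 ratios of -0.86 and -0.60 on plates 2 and 3 and was not called between these classes. With differences of mean log2 it was called lower in Chat-only neurons, beside 2.68% of all genes. These counts pool plates of unequal class make-up, and those with Syn3 may hold reads of Timp3.

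The lists of further release genes, fixed beside the 38, were compared between neuronal and other cells by the same rule. Of 16 other SNAREs and partners tested, 7 were higher in neuronal cells and 2 lower, against the background of 16.7% and 5.53% given above. Stxbp5l, a tomosyn that holds SNAREs back, had log2 ratios of 5.29, 5.15 and 5.48 on plates 1 to 3. The 2 lower genes encode SNAREs of general secretion: Snap23 had -2.60, -1.73 and -1.50 and Vamp8 -2.21, -2.82 and -3.63. Napa and Snap47 were the most often detected of the list, in 96.1% and 95.5% of neuronal cells.

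Of 16 active zone and docking genes tested, 12 were higher in neuronal cells and 0 lower. Bsn, the scaffold Bassoon, was detected in 71.6% of neuronal and in 0 of 49 other cells, with log2 ratios of 5.07, 5.46 and 5.06. Rims3, a small RIM without the RAB3-binding part, was detected in 65.2% and in 0 of these, with 5.30, 5.22 and 5.07. Snapin and Erc1 were the most often detected of the list in neuronal cells, in 90.97% and 87.7%, and were detected in 36 and 37 of 49 other cells. Pclo and Erc2 were each detected in 83.9% of neuronal cells. Of 14 vesicle recycling genes tested, 8 were higher and 0 lower, among them Snap91, the clathrin adaptor AP180, with 7.05, 6.71 and 6.95, and Ap3b2, the neuronal AP-3 subunit, with 6.48, 6.84 and 5.81.

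Within neurons, Rab27b, a GTPase of vesicle docking, was higher with Slc17a6, with log2 ratios of 2.87, 1.63 and 1.23 on plates 1 to 3, and higher in Chat-only than in Nos1-only neurons, with 1.37 and 1.28 on plates 2 and 3. Within Chat neurons its Slc17a6 ratios were 1.47 and 0.01, not called. By Slc17a6 over all neurons, 1 of 16 active zone genes was higher and 0 lower, beside 1.42% and 1.02% of all genes. Of 16 other SNAREs and partners and 14 recycling genes, 0 were called by Slc17a6. Stxbp5l was higher in Chat-only neurons, with 3.42 and 2.87, and Rims3 lower, with -1.62 and -1.31. These were 1 of 16 other SNAREs, 1 higher and 1 lower of 16 active zone genes, and 0 of 14 recycling genes called between Chat-only and Nos1-only neurons, beside 5.28% higher and 2.72% lower of all genes.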

How the data were processed

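Single cells from 3 plates were sequenced with a well barcode and a plate barcode per library. The authors deposited log2(RPKM + 1) per gene and cell; the log base of 2 and the 1 added were inferred from the file. Per the submitters' processing notes the build is mm10; no aligner, counter or strand setting is given in the sources used here. The design had assumed counts, but whole reads were recovered from the deposited log2 values with exon lengths of GENCODE M21 (31365 genes) or fitted lengths (6270 genes, 7 of the 38 members among them): 2375655 of 2375655 values above 0 came out whole within 0.0001 reads, and the planned CPM thresholds were kept. Each of the 204 cells passed minimums of 10000 reads and 1000 genes; doublets were not called. Within plates, 6846 cell pairs were compared for duplicate libraries, and the lowest chi-square per degree of freedom was 5.51. Plates 2 and 3 share a library naming in the labels and plate 1 has its own.

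A transcript was detected at 10 CPM, and a marker list was carried where at least 50% of its genes were detected. Intervals of shares are exact Clopper-Pearson at 95%, and a count of 0 allows up to 3 cells. Ratios used mean CPM with 1 CPM added, on plates with at least 5 cells of each class. Cells are not replicates, so no test was made. The members and lists were chosen with earlier results of these data known. All members could be named, with Slc17a6, Chat and Nos1; of each other list, the 3 genes detected in most neuronal cells and the 2 with the largest smallest-plate ratio of a sign per comparison; Colgalt1, Timp3, Atg4a-ps, Acta2 and Tagln were added after their values were seen. The values of 1 gene of these lists are not reported here. Alternatives covered detection thresholds, neuronal status, the pseudocount, the filter, scaling, plates and the highest cells. Scripts used python 3.11.15, numpy 2.4.6, pandas 2.3.3, scipy 1.17.1 and matplotlib 3.10.9 and were tested on simulated data.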

Additional observations from a re-analysis of the deposited data

Results flagged for a closer look

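Some members went one way on 1 plate and the other way on another, each value being a log2 ratio of mean CPM on that plate. Between neurons with and without Slc17a6, on plates 1, 2 and 3, Syt13 had 1.86, -2.96 and -1.68, Cadps2 had 1.21, -1.32 and -2.04, Syt12 had 0.15, 1.05 and -1.63, and Syt7 had -1.35, 1.20 and -0.04. Between Chat-only and Nos1-only neurons, Vamp1 had 1.75 on plate 2 and -1.03 on plate 3. For Syt7, plate 1 had 0.21 and plate 2 had 1.11 without the highest cell of each class, so the sign on plate 1 rests on the highest cells. Plate 2 had -1.16 in neurons without a list of another cell type, which 18 of 46 neuronal cells of that plate carried. The difference between plates was not tested for any of these genes, since each plate is 1 sample.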

How the results depend on the processing

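No paired analysis was possible because cells are numbered within plates and no number links cells of different classes. No called ratio changed sign, but uncalled ones did: of the plate ratios of tested members, 31 of 359 turned sign without the highest cells, 56 of 359 with mean log2, and 46 of 323 in neurons without a list of another cell type. With 0 members higher with Slc17a6, the count was 1 at a detection threshold of 5 CPM (Sv2c, beside 1.75% of all genes). It was 2 with differences of mean log2 (Syt1 and Syt9, beside 4.15%) and 1 without the highest cells (Syt9, beside 2.57%). Leaving out 1 plate gave 0 to 2, beside 2.92% to 3.83% of all genes. With 0 lower, the count was 1 at 50 CPM and with mean log2 (Syt6 in both, beside 1.21% and 0.321% of all genes). It was 1 with size factors and with no filter (Unc13c in both, beside 0.877% and 0.523%). In neurons without a list of another cell type it was 4 (Sv2b, Syt6, Syt13 and Cadps2, beside 2.29%), where plates 2 and 3 only had enough cells. Leaving out 1 plate gave 0 to 4, the 4 without plate 1, beside 2.52% to 2.65% of all genes. Between Chat-only and Nos1-only neurons, the 3 higher members became 3 to 7 when 1 plate was left out, 7 without plate 3, and the 3 lower became 3 to 9, 9 without plate 2 and 5 without plate 3, where a single plate decides a call and the shares of all genes rose too, to 13.5% and 14.3% higher and 8.65% and 10% lower. With 10 CPM added, 1 was lower (Syt13, beside 1.15% of all genes). With differences of mean log2, 4 were lower (Sv2b, Syt2, Syt13 and Cadps2, beside 2.68% of all genes). Syn2 and Sv2c were called under every alternative tried, Syt9 was not at 5 CPM or with 10 CPM added, and Syn3 was not with 10 CPM added, size factors, mean log2 or without cells carrying another list. Members detected in at least 50% of neurons numbered 22 at 50 CPM and at most 28. Members higher in neuronal cells numbered 26 to 31, beside 7.58% to 26.8% of all genes. Leaving out neurons with neither Chat nor Nos1, chosen after seeing the data, gave 28 members in at least 50% of neurons. It gave 29 higher in neuronal cells (beside 17.6% of all genes), 0 and 0 by Slc17a6 (1.26% and 0.775%) and 3 and 3 by class (5.28% and 2.72%). Syt6 stayed lower with Slc17a6 within Chat neurons under every alternative tried there. Size factors moved the median of all genes between Chat-only and Nos1-only neurons from 0.03 and 0.06 to 0.28 and 0.30. Depth limits low genes most, and reads without molecular identifiers are not independent molecules. Apart from depth, the number of cells limits shares: 0 of 49 cells allows up to 6.12%.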

Other observations

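Dense core vesicles carry peptides, and 11 of 12 of their genes tested were higher in neuronal than in other cells and 0 lower, beside 16.7% and 5.53% of all genes. Scg2, a granin packed into these vesicles, was detected in 96.1% of neuronal cells at a mean of 714 RPKM, with log2 ratios of 7.29, 7.74 and 6.95 on plates 1 to 3. Vgf, a neuropeptide precursor, had 6.69, 7.27 and 6.82. Pcsk1n, an inhibitor of a peptide-processing protease, was detected in 98.7% and Ptprn, a vesicle membrane protein, in 95.5%. None of the 12 was called between neurons with and without Slc17a6 (1.42% higher and 1.02% lower of all genes) or between Chat-only and Nos1-only neurons (5.28% and 2.72%), shares at which few of 12 genes would be called.

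Of 10 other vesicle proteins tested, 7 were higher in neuronal cells and 0 lower, beside the same 16.7% and 5.53%. Sncg, encoding gamma-synuclein, was detected in 95.5% of neuronal cells at a mean of 1496 RPKM, with log2 ratios of 6.89, 6.15 and 6.31. Sncb, encoding beta-synuclein, had 5.88, 5.55 and 5.22 and was detected in 0 of 49 other cells. Synpr, encoding synaptoporin, a relative of synaptophysin, was detected in 17.4% of neuronal cells at a mean of 1.14 RPKM. It was lower with Slc17a6, with log2 ratios of -1.53, -2.33 and -1.32 on plates 1 to 3. Within Chat neurons of plates 2 and 3 it had -2.58 and -2.37. By Slc17a6, 1 of 11 genes of this list tested was lower and 0 higher, beside 1.02% and 1.42% of all genes. Within Chat neurons, 1 of 12 was lower and 0 higher, beside 1.53% and 2.83%. Sypl and Syt17 were detected in 88.4% and 85.2% of neuronal cells.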
